A study of Mus musculus with 42 samples.

Results

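The transcripts described here are 10 genes that control the first gap (G1) phase of the cell cycle: the D-type cyclins Ccnd1, Ccnd2 and Ccnd3, their partner kinases Cdk4 and Cdk6, the CDK inhibitors Cdkn1a, Cdkn1b, Cdkn2c and Cdkn2d, and the transcription factor Myc. They were taken by symbol from a table of 11160 genes, and all 10 were in it. They were followed in macrophages grown from mouse bone marrow over 6 days with M-CSF at 50 ng/ml, which were then replated and treated a day later. Cells were of the genotype WT or MS4A4A KO (called KO here), a knockout of a membrane protein of macrophages, and allele, strain, sex and age are not in the labels used here. In each genotype they were left untreated, or kept for 2, 8 or 24 h with vehicle or with 1 µM Dex (dexamethasone, a synthetic agonist of the glucocorticoid receptor). This makes 14 groups of 3 libraries each.

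The D-type cyclins bind CDK4 and CDK6, and the kinase complexes phosphorylate the retinoblastoma protein, which frees E2F factors to switch on genes of DNA replication. Cdkn2c and Cdkn2d encode the INK4 proteins p18 and p19, which bind CDK4 and CDK6, whereas Cdkn1a and Cdkn1b encode p21 and p27, which act on cyclin-CDK complexes more broadly. M-CSF is the mitogen of these macrophages, and MYC and D-type cyclins are classic targets of its receptor's signalling, while glucocorticoids are known to slow the growth of many blood cell types.

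The 42 libraries held 10140200 to 33528400 counts (median 27998700). All 10 macrophage markers listed (among them Adgre1, Csf1r and Spi1) were measured, with a summed level of 18312 to 42511 CPM (counts scaled to a common library total). Of the markers of other cells, 0 of 7 erythroid and 0 of 6 mast cell genes were in the table, and of 8 T and NK cell genes it held Cd4 but neither Cd3e nor Cd8a. It also held 5 of 10 neutrophil, 4 of 7 dendritic cell, 4 of 8 fibroblast and 2 of 6 B cell genes (Cd79b and Ebf1). In untreated cells these summed to 28.7 to 104, 8.17 to 16.0, 1.93 to 5.65 and 3.20 to 6.93 CPM. The glucocorticoid receptor targets Fkbp5 and Tsc22d3 were at 298 to 1156 and 1577 to 2736 CPM in all Dex libraries, against 10.9 to 69.9 and 187 to 529 CPM in those without Dex. The library labelled KO vehicle 24 h replicate 2 stood apart in Fkbp5, with 69.9 CPM. The other 5 vehicle libraries at 24 h had 12.4 to 19.0 CPM. Its Tsc22d3 was 529 CPM, but WT and KO replicate 1 of vehicle at 24 h also had 360.4 and 311 CPM. With vehicle at 2 and 8 h Tsc22d3 ran from 199 to 255 and from 191 to 212 CPM. Leaving out KO vehicle 24 h replicate 2 thus does not remove every raised Tsc22d3 value. Members' results at 24 h that change in call without that library are named as such. Ms4a4a was still counted in every KO library, at 24.2 to 179 CPM without Dex against 67.0 to 213 CPM in WT. With Dex it was at 66.5 to 802 CPM in KO against 104 to 1683 CPM in WT. At 24 h of Dex the ranges were 747 to 802 CPM in KO and 1499 to 1683 CPM in WT. In each condition except vehicle at 24 h, where KO replicate 2 had 179 CPM, every KO library was below every WT library. Nothing in the labels ties the replicates to separate animals or cultures, so each p-value reflects the spread among these libraries only, and that spread may be technical. In bulk RNA, fewer cells of a type and less RNA per cell cannot be told apart.

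Promoter sequences of 7 of the 10 genes were found in the RefSeq table (GRCm38.p6), giving 10 windows of 250 bases or slightly fewer before a start, of 32851 windows searched on both strands. Ccnd1, Ccnd2 and Myc had no window there, so the searches do not cover them. The windows of Ccnd3 and Cdkn1b are printed because these are the members that Dex raised at both 8 and 24 h, and that of Cdk4 because it held 4 copies of the E-box CACGTG, the motif that MYC and its partner MAX bind. Capitals mark TGTTTAC, which is the forkhead (FOXO) motif GTAAACA on the other strand, in Ccnd3, the CCAAT box in Cdkn1b and the E-box in Cdk4.
Ccnd3, chr17:47504801-47505050, plus strand: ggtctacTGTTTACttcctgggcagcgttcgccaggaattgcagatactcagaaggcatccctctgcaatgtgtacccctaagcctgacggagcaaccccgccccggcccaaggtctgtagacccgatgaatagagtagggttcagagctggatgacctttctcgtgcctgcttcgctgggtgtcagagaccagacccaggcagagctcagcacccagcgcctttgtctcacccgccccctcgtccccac
Cdkn1b, chr6:134920151-134920400, plus strand: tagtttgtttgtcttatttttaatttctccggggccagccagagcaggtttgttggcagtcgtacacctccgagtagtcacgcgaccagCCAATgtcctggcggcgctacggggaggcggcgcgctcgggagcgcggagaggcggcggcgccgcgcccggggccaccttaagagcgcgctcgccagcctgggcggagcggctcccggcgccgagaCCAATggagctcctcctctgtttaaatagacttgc
Cdk4, chr10:127063285-127063533, plus strand: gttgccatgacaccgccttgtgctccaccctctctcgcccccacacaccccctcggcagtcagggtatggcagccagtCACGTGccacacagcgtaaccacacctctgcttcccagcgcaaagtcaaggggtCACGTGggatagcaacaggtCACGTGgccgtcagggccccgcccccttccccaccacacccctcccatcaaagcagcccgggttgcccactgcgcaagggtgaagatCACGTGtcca
The forkhead motif lay 243 bases before the start of Ccnd3, and 3.17% of all windows held it. The other window of Ccnd3 in the table, at a second annotated start, did not hold it, and neither did the window of Cdkn1b. CCAAT lay 161 and 35 bases before the start of Cdkn1b and was present in 33.8% of all windows. The 4 E-boxes of Cdk4 began 172, 118, 98 and 11 bases before its start. At least 1 E-box was found in 6.02% of all windows, and 4 or more in 7 of them (0.0213%). The only other member window with an E-box was that of Cdk6. The glucocorticoid response element, searched as GNACA and TGTNC with 3 free bases between them, was in 0.387% of all windows and in 0 of the 10 member windows. Its half-site TGTTCT was in 16.1% of all windows and in those of Cdk6 and Cdkn2c. These matches are letters in a window and show no binding.

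Untreated WT macrophages differed widely in the levels of these transcripts, given here as CPM per kilobase of the longest annotated transcript (mean ± SD, n = 3). Cdkn1a had 194 ± 17.5 CPM per kilobase, the highest of the 10, followed by Cdk4 with 72.0 ± 6.92. Cdkn2d had 16.8 ± 2.58, Ccnd1 14 ± 1.47, Cdk6 12.6 ± 1.48, Ccnd3 12.0 ± 1.15 and Cdkn2c 11.3 ± 2.87 CPM per kilobase. Myc followed with 9.13 ± 0.586, Ccnd2 with 3.44 ± 0.15 and Cdkn1b with 1.33 ± 0.403 CPM per kilobase. From Cdkn2d down to Myc the ranges of neighbours in this order overlapped, while Cdkn1a, Cdk4, Ccnd2 and Cdkn1b each stood clear of their neighbours. Across the 14 groups Ccnd1 varied most, with group means that spanned 10.7-fold from WT Dex at 24 h to KO Dex at 2 h, and Cdk4 varied least, over 1.39-fold.

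Dex changed most of these transcripts by 8 h, in both directions. Against vehicle, averaged over the genotypes (6 libraries a side), Dex lowered 1 of the 10 members and raised 0 at 2 h, when 14.5% of all genes passed edgeR's quasi-likelihood test at an adjusted p of 0.05 (8.14% higher and 6.41% lower). At 8 h it raised 5 members (Ccnd3, Cdkn1a, Cdkn1b, Cdkn2c and Cdkn2d) and lowered 4 (Ccnd1, Ccnd2, Cdk4 and Myc), when 52.2% of all genes passed (27.5% higher and 24.7% lower). At 24 h it raised 2 (Ccnd3 and Cdkn1b) and lowered 5 (Ccnd1, Ccnd2, Cdk6, Cdkn2c and Myc), when 53.6% passed (26.8% in each direction). The median size of the log2 fold change over the 10 members was 0.10, 0.65 and 0.72 at 2, 8 and 24 h, against 0.08, 0.21 and 0.21 over all genes. The 6 vehicle and 6 Dex libraries did not overlap for 7 of the 10 members at 8 h and for 4 at 24 h, against 37.2 and 28.7% of all genes. Without KO vehicle 24 h replicate 2 the same 7 members were called at 24 h, with log2 fold changes of -1.15 for Ccnd2, 0.19 for Ccnd3, -1.20 for Cdk6, 0.51 for Cdkn1b, -0.90 for Cdkn2c and -1.33 for Myc.

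**Figure D1:**
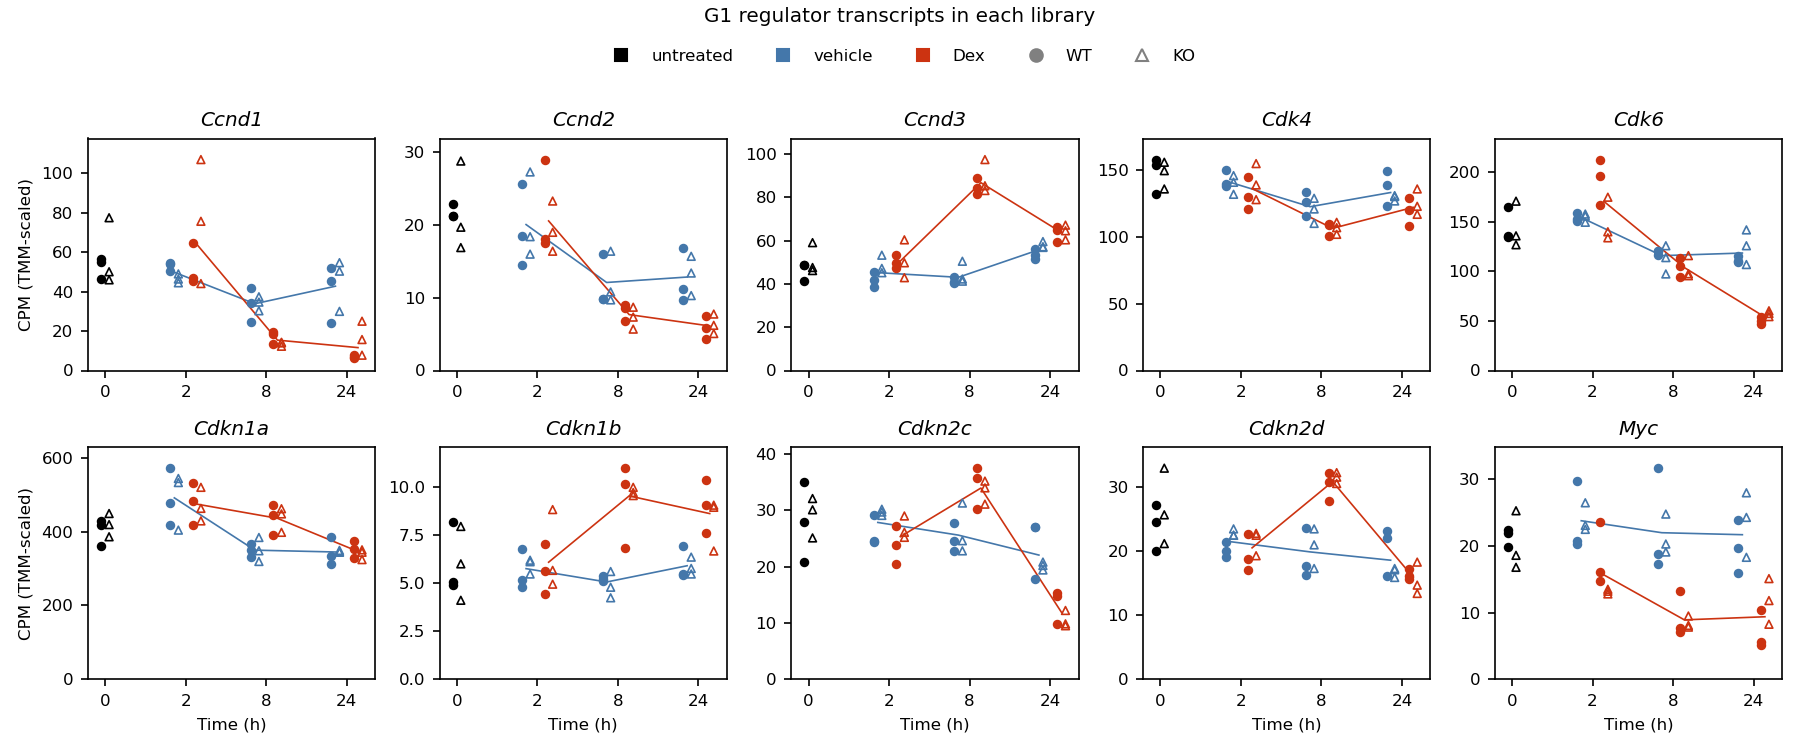
Levels of the 10 transcripts in all 42 libraries, in CPM on linear axes from 0, by time in hours (evenly spaced, 0 is untreated), with filled circles for WT, open triangles for KO, colours for untreated, vehicle and Dex, and lines joining the means of the 6 libraries of a condition. At 8 h the Dex libraries lie below all vehicle libraries for Ccnd1, Ccnd2 and Myc and above them for Ccnd3, Cdkn1a, Cdkn1b and Cdkn2d.

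Ccnd1, which encodes cyclin D1 (GRCm38 chr7:144929931-144939925, minus strand), showed the deepest fall. In WT cells at 8 h it was at 42, 34 and 24.8 CPM with vehicle and at 18.6, 13.6 and 19.7 CPM with Dex. In KO cells the vehicle libraries had 37.4, 34.7 and 30.3 CPM and the Dex libraries 14.3, 12.3 and 14 CPM. All 6 Dex libraries were below all 6 vehicle libraries, and the fall was 2.22-fold (log2 fold change -1.15 ± 0.21 SE, adjusted p = 2.71e-05, edgeR). At 24 h WT libraries had 52.0, 45.2 and 24.3 CPM with vehicle and 7.85, 6.56 and 6.76 CPM with Dex. KO libraries had 54.7, 30.0 and 50.4 CPM with vehicle and 15.7, 25.0 and 7.76 CPM with Dex. Within each genotype the sides did not overlap, although the KO Dex libraries were scattered and replicate 2 reached the level of the lowest WT vehicle library. The fall was 3.99-fold over both genotypes (-2.00 ± 0.22, adjusted p = 2.27e-09, edgeR), and without KO vehicle 24 h replicate 2 it was -2.12. The change at 2 h, 0.34 ± 0.20, was not called (adjusted p = 0.367, edgeR). The KO Dex libraries then ran from 44.1 to 107 CPM, so that this group alone spanned more than all vehicle libraries at 2 h, which lay between 44.5 and 54.6 CPM.

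Ccnd2, the cyclin D2 gene (GRCm38 chr6:127125162-127152193, minus strand), followed the same direction at lower levels. Over the 6 libraries of a side at 8 h it ran from 9.71 to 16.4 CPM (median 10.3) with vehicle and from 5.69 to 8.94 CPM (median 7.97) with Dex. At 24 h the vehicle libraries ran from 9.71 to 16.8 CPM (median 12.3) and the Dex libraries from 4.32 to 7.76 CPM (median 6.06). The sides did not overlap at either time. The fall was 1.58-fold at 8 h (-0.66 ± 0.19, adjusted p = 0.00483, edgeR) and 2.09-fold at 24 h (-1.06 ± 0.20, adjusted p = 3.12e-05, edgeR).

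Ccnd3, the cyclin D3 gene (GRCm38 chr17:47505051-47599691, plus strand), went the other way. At 8 h WT libraries had 41.1, 40.3 and 43.0 CPM with vehicle and 84.2, 81.7 and 88.9 CPM with Dex. KO libraries had 50.5, 41.3 and 42.3 CPM with vehicle and 97.5, 83.2 and 85.4 CPM with Dex. Every Dex library was above every vehicle library, and the rise was 2.02-fold (1.01 ± 0.07, adjusted p = 6.33e-14, edgeR). At 24 h the vehicle libraries ran from 51.7 to 59.6 CPM (median 56.6) and the Dex libraries from 59.3 to 67.2 CPM (median 64.8), which overlap narrowly. The difference was 1.14-fold (0.19 ± 0.07, adjusted p = 0.0223, edgeR), and it was no longer called without KO Dex 24 h replicate 3, WT Dex 24 h replicate 1 or WT vehicle 24 h replicate 1, with an adjusted p of up to 0.0653. The rise at 24 h was smaller than that at 8 h, with a difference of -0.82 ± 0.10 between the log2 fold changes.

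The makeup of the D-type cyclin transcripts also differed between vehicle and Dex. Per kilobase of the longest transcript, Ccnd3 made up 50.7 ± 4.65% of the summed level of the 3 cyclins with vehicle at 8 h and 80.9 ± 2.64% with Dex (mean ± SD, n = 6). At 24 h the share was 52.6 ± 8.30% with vehicle and 80.8 ± 7.98% with Dex. The Dex libraries ran from 77.5 to 82.9% at 8 h and from 66.5 to 87.1% at 24 h, and the lowest of them lay above the highest vehicle libraries, 57.7% at 8 h and 64.5% at 24 h. Ccnd1 went from 40.7 ± 4.11 to 14.8 ± 2.35% at 8 h and from 40.2 ± 7.73 to 14.5 ± 7.74% at 24 h. The summed level was 22.1 ± 2.42 CPM per kilobase with vehicle and 27.8 ± 1.94 with Dex at 8 h, and 27.9 ± 3.54 with vehicle and 20.6 ± 1.88 with Dex at 24 h. Without KO vehicle 24 h replicate 2 the share of Ccnd3 with vehicle at 24 h was 50.8 ± 7.88% (n = 5). At 2 h with Dex, Ccnd1 made up 49.8 ± 7.88% and Ccnd3 40.3 ± 7.44%. In untreated cells and with vehicle at 2 h the means of Ccnd1 were 47.6 and 47.3%, against 41.2 and 41.5% for Ccnd3. With vehicle at 8 and 24 h, which cyclin had the higher mean depended on the length used: per kilobase of all annotated exons it was Ccnd1, with 53.5% against 37.0% for Ccnd3 at 8 h. With Dex at 8 and 24 h Ccnd3 had the higher mean on both scales, at 70.9 and 71.2% on this one. The size of the difference in summed level at 8 h also depended on the length used. Per kilobase of all annotated exons the sum was 13.4 ± 1.68 with vehicle and 14 ± 1.08 with Dex at 8 h. At 24 h it was 16.8 ± 2.83 with vehicle and 10.4 ± 1.53 with Dex, so the sum was lower with Dex on both scales then.

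**Figure D2:**
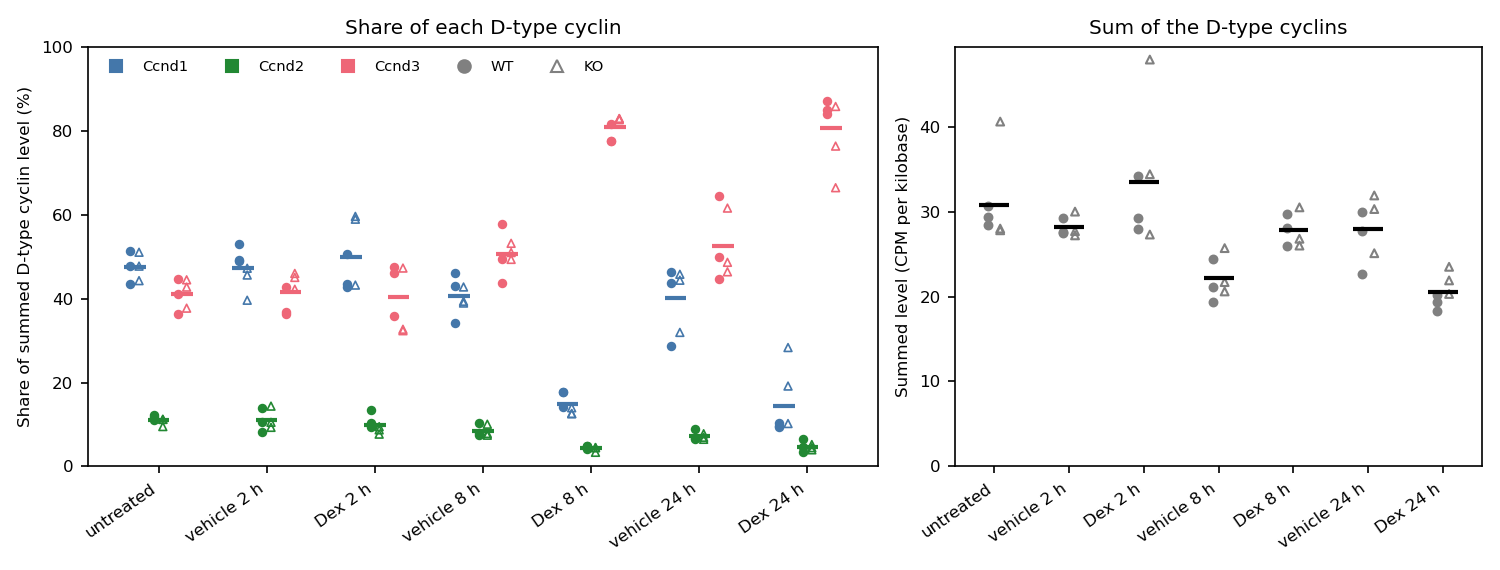
Left, the share of Ccnd1, Ccnd2 and Ccnd3 in their summed level, in percent of CPM per kilobase of the longest transcript; right, the summed level itself. Points are libraries (circles WT, triangles KO) and bars are means of the 6 libraries of a condition; Ccnd3 makes up 80.9% with Dex at 8 h and 80.8% at 24 h, against 50.7 and 52.6% with vehicle.

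Of the kinase genes, Cdk4 was called at 8 h and Cdk6 at 24 h. Cdk4 (GRCm38 chr10:127063534-127067920, plus strand) ran from 110.2 to 134 CPM (median 124) with vehicle at 8 h and from 100.4 to 111 CPM (median 108) with Dex, which overlap. Its fall of 1.15-fold passed the test (-0.20 ± 0.06, adjusted p = 0.00641, edgeR), and at 24 h the difference of -0.12 ± 0.06 did not (adjusted p = 0.0908, edgeR). Cdk6 (GRCm38 chr5:3341485-3531008, plus strand) was called lower at 24 h. WT libraries had 109.8, 111 and 116 CPM with vehicle and 54.5, 47.4 and 49.6 CPM with Dex. KO libraries had 126, 107 and 142 CPM with vehicle and 60.3, 57.6 and 54.4 CPM with Dex. The sides lay far apart, and the fall was 2.20-fold (-1.14 ± 0.08, adjusted p = 1.05e-13, edgeR). At 8 h the difference was -0.16 ± 0.08 (adjusted p = 0.106, edgeR), and the step from 8 to 24 h was -0.98 ± 0.12 on the log2 scale.

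Of the inhibitors, Cdkn1b (p27, GRCm38 chr6:134920401-134925513, plus strand) rose and stayed up. At 8 h WT libraries had 5.14, 5.38 and 5.22 CPM with vehicle and 10.2, 11.0 and 6.82 CPM with Dex. KO libraries had 4.24, 4.79 and 5.61 CPM with vehicle and 10.0, 9.57 and 9.73 CPM with Dex. All Dex libraries were above all vehicle libraries, with WT Dex 8 h replicate 3 the lowest of them. The rise was 1.89-fold at 8 h (0.92 ± 0.16, adjusted p = 7.30e-06, edgeR). At 24 h it was 1.46-fold (0.54 ± 0.16, adjusted p = 0.00380, edgeR), with vehicle libraries from 5.43 to 6.95 CPM and Dex libraries from 6.68 to 10.4 CPM.

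Cdkn1a (p21, GRCm38 chr17:29090976-29100727, plus strand), the most abundant of the members, was a little higher with Dex than with vehicle at 8 h. Its mean with Dex was 475, 436 and 346 CPM at 2, 8 and 24 h. With vehicle it was 491, 349.8 and 345 CPM, and in untreated cells 410.4 CPM. At 8 h it ran from 319 to 384 CPM (median 349) with vehicle and from 390.2 to 473 CPM (median 447) with Dex, without overlap. The difference at 8 h was 1.25-fold (0.32 ± 0.08, adjusted p = 0.000944, edgeR), with vehicle below untreated cells then. At 24 h the medians were 345 CPM with vehicle and 347 CPM with Dex, with a difference of 0.00 ± 0.08 (adjusted p = 0.967, edgeR).

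The INK4 genes moved up at 8 h, and of the pair Cdkn2c then fell below vehicle. Cdkn2c (p18, GRCm38 chr4:109660876-109667189, minus strand) had 24.5, 27.7 and 22.7 CPM in WT vehicle and 35.8, 37.5 and 30.2 CPM in WT Dex libraries at 8 h. KO libraries had 31.3, 24.6 and 22.8 CPM with vehicle and 35.2, 31.1 and 34 CPM with Dex. The sides overlapped through KO vehicle 8 h replicate 1, and the rise was 1.33-fold (0.41 ± 0.11, adjusted p = 0.00308, edgeR). At 24 h WT libraries had 27.0, 27.1 and 17.8 CPM with vehicle and 15.3, 14.7 and 9.74 CPM with Dex. KO libraries had 19.4, 20.8 and 20.2 CPM with vehicle and 9.48, 12.2 and 9.82 CPM with Dex. The order of the sides had turned, without overlap, and the fall was 1.86-fold (-0.90 ± 0.12, adjusted p = 1.09e-07, edgeR). The difference between the effects at 24 and 8 h was -1.31 ± 0.17 on the log2 scale, the largest of the 10 members for that interval.

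Cdkn2d (p19, GRCm38 chr9:21288410-21291407, minus strand) ran from 16.3 to 23.6 CPM (median 19.4) with vehicle at 8 h and from 27.9 to 32.3 CPM (median 31.2) with Dex, without overlap. The rise was 1.55-fold (0.63 ± 0.10, adjusted p = 4.05e-06, edgeR). At 24 h the vehicle libraries ran from 15.9 to 23.1 CPM and the Dex libraries from 13.4 to 18.3 CPM. The difference of -0.22 ± 0.11 was not called (adjusted p = 0.0811, edgeR).

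Myc (GRCm38 chr15:61985391-61990374, plus strand), a transcription factor that drives growth and biosynthesis, was the only member called at 2 h, when 14.5% of all genes passed. At 2 h WT libraries had 29.7, 20.7 and 20.3 CPM with vehicle and 23.6, 14.8 and 16.1 CPM with Dex. KO libraries had 26.5, 22.5 and 23.1 CPM with vehicle and 13.5, 12.8 and 13.2 CPM with Dex. The KO sides stood apart, while in WT replicate 1 was high on both sides and the ranges overlapped. Over both genotypes the fall was 1.54-fold (-0.62 ± 0.18, adjusted p = 0.0122, edgeR), and without WT vehicle 2 h replicate 1 it was no longer called (adjusted p = 0.0578). By genotype, the fall at 2 h was called in KO (-0.87 ± 0.25, adjusted p = 0.0196, edgeR). In WT it was not (-0.37 ± 0.25, adjusted p = 0.440, edgeR). At 8 h WT libraries had 31.7, 17.3 and 18.8 CPM with vehicle and 13.2, 7.12 and 7.73 CPM with Dex. KO libraries had 24.8, 20.3 and 19.1 CPM with vehicle and 8.07, 7.81 and 9.48 CPM with Dex. All Dex libraries were below all vehicle libraries. The fall was 2.48-fold at 8 h (-1.31 ± 0.18, adjusted p = 2.70e-07, edgeR) and 2.37-fold at 24 h (-1.24 ± 0.18, adjusted p = 7.67e-07, edgeR). At 24 h the Dex libraries ran from 5.16 to 15.1 CPM and the vehicle libraries from 16.0 to 28 CPM.

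**Figure D3:**
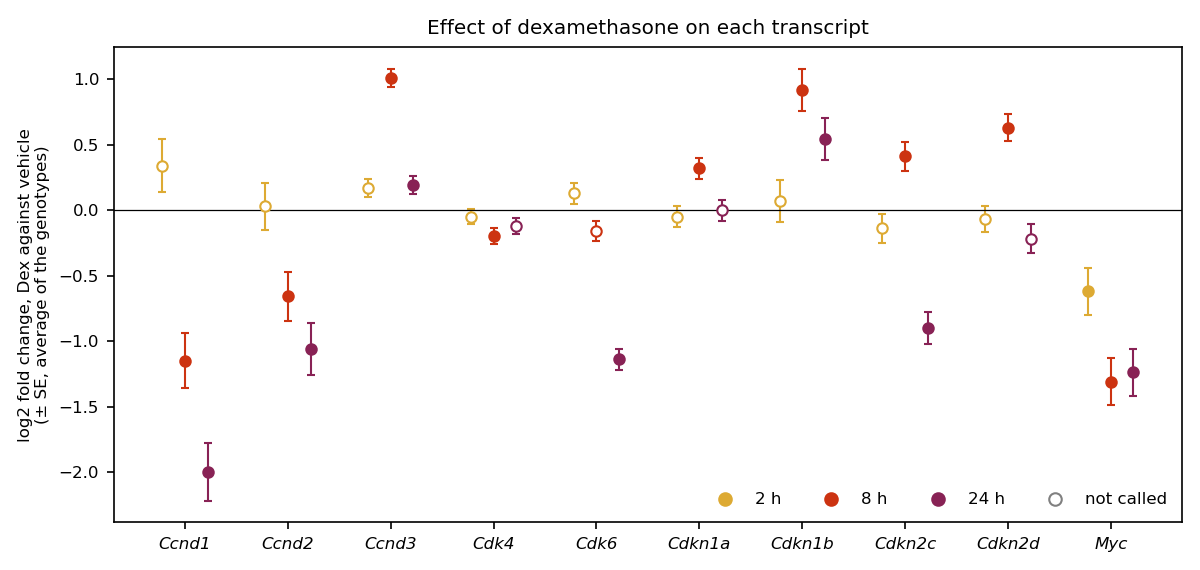
Log2 fold change of Dex against vehicle for each member, averaged over the genotypes, coloured by time (2, 8 and 24 h), with bars of ± 1 SE and open circles where the test was not passed. Ccnd1 goes from 0.34 at 2 h to -2.00 at 24 h, Ccnd3 is highest at 8 h with 1.01, and Cdkn2c turns from 0.41 at 8 h to -0.90 at 24 h.

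The effect of Dex differed between 2 and 8 h for 8 of the 10 members, when 31.0% of all genes passed that test (16.9% with a positive and 14.1% with a negative difference), and between 8 and 24 h for 6, when 25.9% passed (9.92% positive and 16.0% negative). From 2 to 8 h the steps were positive for Ccnd3, Cdkn1a, Cdkn1b, Cdkn2c and Cdkn2d and negative for Ccnd1, Ccnd2 and Myc. From 8 to 24 h all 6 called steps were negative, for Ccnd1, Ccnd3, Cdk6, Cdkn1a, Cdkn2c and Cdkn2d. Without KO vehicle 24 h replicate 2 the count for the later interval was 5, since Cdkn1a was lost (adjusted p = 0.0512, edgeR). For Myc and Cdkn1b the difference between 24 and 8 h did not pass the test. The step of Cdk6 from 2 to 8 h, -0.29, lay just outside the threshold (adjusted p = 0.0521, edgeR) and was called in 5 of 6 alternatives and in 11 of 24 fits without 1 library.

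In culture without Dex some of the members moved as well. Vehicle was compared with untreated cells, so that the tests share the untreated libraries. Cdkn1a rose at 2 h (0.26 ± 0.08, adjusted p = 0.0228, edgeR), the only member of 10 that passed, when 13.8% of all genes did (7.03% higher and 6.72% lower). At 8 h Ccnd1, Ccnd2, Cdk4, Cdk6, Cdkn1a and Cdkn2d, 6 of 10, were lower than in untreated cells, when 18.2% of all genes passed (8.49% higher and 9.66% lower). Ccnd2 moved most, from 16.9 to 28.8 CPM (median 21.3) in untreated cells to a median of 10.3 CPM with vehicle at 8 h (-0.85 ± 0.19, adjusted p = 0.00125, edgeR). At 24 h Ccnd3 was higher, and Ccnd2, Cdk6, Cdkn1a, Cdkn2c and Cdkn2d were lower, when 31.0% passed (15.6% higher and 15.4% lower). The differences at 24 h ran from -0.76 ± 0.19 for Ccnd2 to 0.20 ± 0.07 for Ccnd3. Myc differed from untreated cells by 0.19, 0.08 and 0.06 at 2, 8 and 24 h and passed at no time. The call of Cdkn1a at 2 h was lost without replicate 3 of untreated KO or untreated WT cells, replicate 1 or 2 of KO vehicle at 2 h, or replicate 1 of WT vehicle at 2 h (adjusted p up to 0.105). Of the 12 fits that each left out 1 library, 10 called Ccnd1, 7 Cdkn2d and 4 Cdkn1a at 8 h, and 7 called Ccnd3 and 10 Cdkn2c at 24 h. Without KO vehicle 24 h replicate 2, 5 members were called at 24 h, since Ccnd3 was lost (adjusted p = 0.0605, edgeR). In a fit of the compared groups alone Cdkn1a at 2 h, Cdkn2d at 8 h and Ccnd3 and Cdkn2c at 24 h were not called, and with a replicate block Cdk4 was also called at 24 h.

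The genotypes were not separated by any member. When the effects of Dex in KO and WT cells were compared, 0 of 10 members and 0% of all genes passed edgeR's test at 2, 8 and 24 h. DESeq2 also called 0 genes, and 986, 133 and 564 genes had an unadjusted p under 0.05. The largest such difference was that of Ccnd1 at 24 h, with -2.53 ± 0.32 in WT and -1.47 ± 0.30 in KO, a difference of 1.06 ± 0.44 (adjusted p = 0.890, edgeR). Without KO vehicle 24 h replicate 2 this difference was 0.84 ± 0.44 (adjusted p = 0.972, edgeR). Between KO and WT without Dex, 0 of 10 members passed, with 0.224% of all genes (25) called and 933 at an unadjusted p under 0.05. Under Dex it was 0 of 10, with 0.0538% (6 genes) called and 852 at an unadjusted p under 0.05. Ccnd1 was 0.46 ± 0.18 higher in KO under Dex on the log2 scale (adjusted p = 0.521, edgeR), and Ccnd3 0.14 ± 0.05 higher without Dex (adjusted p = 0.360, edgeR). Standard errors of this size leave room for moderate differences, so these tests do not show that the genotypes act alike.

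Downstream of the cyclins, retinoblastoma proteins, E2F factors and G1/S kinases were represented by 22 of the 24 genes listed. Of these, 4 rose and 6 fell with Dex at 8 h, and 3 rose and 13 fell at 24 h, with medians of -0.06 and -0.41 against 0.01 over all genes at both times. These are 45.5 and 72.7% of the list, against 52.2 and 53.6% of all genes. Ccne1 and Ccne2, the E-type cyclins that partner CDK2, fell by 2.04 ± 0.11 and 2.33 ± 0.15 on the log2 scale at 24 h (adjusted p = 7.93e-17 and 4.36e-15, edgeR). Ccna2, cyclin A2, fell by 2.26 ± 0.15, and Rbl1, which encodes the retinoblastoma relative p107, fell by 1.35 ± 0.07. At 8 h Rbl2, the gene of its relative p130, was 0.44 ± 0.08 higher and Tfdp2, a dimer partner of E2F factors, 0.92 ± 0.09 higher.

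S-phase genes and mitosis genes, markers of dividing cells, fell mostly at 24 h. At 8 h, 9 of 21 measured S-phase genes were lower and 0 higher, with Pcna, the clamp of DNA polymerase, at -1.12 ± 0.10 and the helicase subunit gene Mcm2 at -0.91 ± 0.09. Of all genes, 24.7% were lower and 27.5% higher at 8 h. Of 21 mitosis genes, 0 were lower and 1 was higher then (Mki67, 0.32 ± 0.11, adjusted p = 0.0165, edgeR). At 24 h all 21 measured S-phase genes and all 21 mitosis genes were lower, with medians of -1.57 and -1.97 and with the same counts without KO vehicle 24 h replicate 2. Of all genes, 26.8% were lower at 24 h. The helicase gene Mcm5 stood at -2.70 ± 0.13 and Top2a, which encodes a topoisomerase of dividing cells, at -2.33 ± 0.14. Cdkn2c was among the genes that fell then, and the genes whose pattern over the 14 group means was most like it were Hist1h2ap (r = 0.978), Depdc1a (r = 0.978) and Traip (r = 0.976). Without Dex, 12 of 21 S-phase genes were lower at 8 h than in untreated cells, and 8 S-phase and 9 mitosis genes at 24 h. Of all genes, 9.66 and 15.4% were lower than in untreated cells at 8 and 24 h. The summed level of the 4 measured fibroblast markers of 8 listed (Col1a1, Col1a2, Col3a1 and Pdgfrb, while Dcn and Lum were not in the table) was 8.98 to 41.8 CPM with Dex and 4.95 to 14 CPM with vehicle at 24 h, and its part in these results was not tested. The 5 of 10 neutrophil markers in the table summed to 12.6 to 50.9 CPM with Dex and 20.6 to 77.5 CPM with vehicle at 24 h, and their part was not tested. The 4 of 7 dendritic cell markers measured (Flt3, Zbtb46, Ccr7 and Itgax) summed to 5.11 to 7.23 CPM with Dex and 11.1 to 17.3 CPM with vehicle at 24 h, and Cd4 was at 1.68 to 6.23 CPM with Dex and 7.74 to 14.3 CPM with vehicle. Neither overlapped between the sides, and the part of these cells in the results was not tested.

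**Figure D4:**
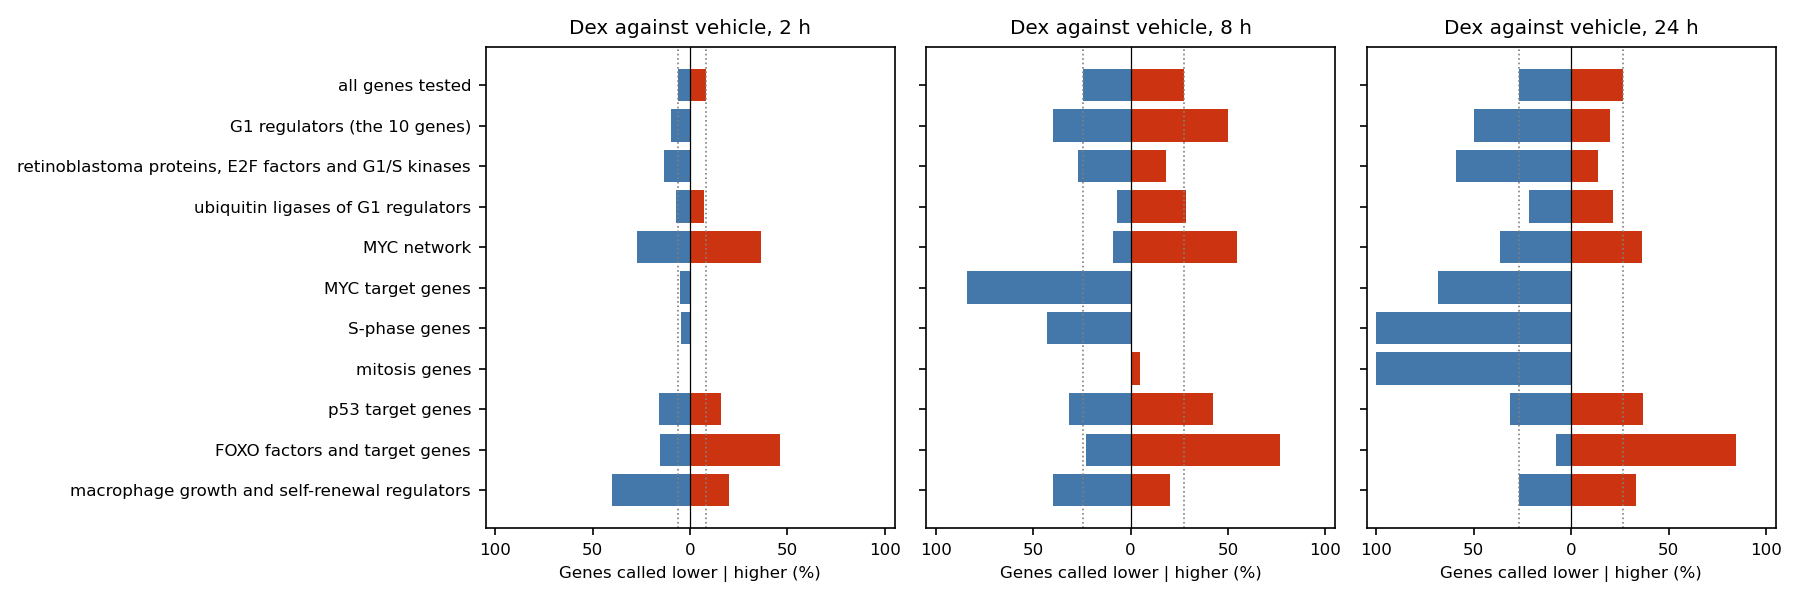
Percent of genes called lower (blue, to the left) and higher (red, to the right) with Dex against vehicle at 2, 8 and 24 h, averaged over the genotypes, for all genes tested, the 10 members and each of the 9 gene lists, with dotted lines at the percentages of all genes. At 24 h all 21 S-phase genes and all 21 mitosis genes are lower, and of the MYC target genes 16 of 19 are lower at 8 h and 13 at 24 h.

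Around Myc, genes of the network of MAX partners and known MYC targets were counted. Of 13 network genes listed, 11 were measured. At 2 h 4 rose and 3 fell (median -0.02), and at 8 h 6 rose and 1 fell (median 0.42). At 24 h 4 rose and 4 fell (median -0.04). The called genes are 63.6, 63.6 and 72.7% of the list, against 14.5, 52.2 and 53.6% of all genes. Mxd4 and Mxi1, which encode MAX partners that oppose MYC, were 0.87 ± 0.07 and 0.66 ± 0.06 higher at 8 h (adjusted p = 4.60e-12 and 6.52e-11, edgeR). Mxd1, of the same family, was lower at 2 h (-0.77 ± 0.09) and higher at 8 h (0.62 ± 0.09). At 2 h Mxi1 was lower too (-0.25 ± 0.06), while Mxd4 was higher (0.22 ± 0.07). Mycl, a MYC paralog, rose 4.24-fold at 2 h (2.08 ± 0.36, adjusted p = 2.93e-05, edgeR), when Myc fell. Of 19 MYC target genes, 1 was lower and 0 were higher at 2 h. At 8 h 16 were lower and 0 higher (median -0.46), and at 24 h 13 were lower and 0 higher (median -0.33). Of all genes, 6.41, 24.7 and 26.8% were lower at 2, 8 and 24 h. The transferrin receptor gene Tfrc stood at -0.88 ± 0.11 at 8 h and -1.07 ± 0.11 at 24 h, and Eif4e, which encodes the cap-binding translation factor, at -0.69 ± 0.06 and -0.38 ± 0.06.

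Genes that act on the inhibitors and cyclins were also counted. Of 14 ubiquitin ligase genes for G1 regulators, 1 rose and 1 fell at 2 h, 4 rose and 1 fell at 8 h, and 3 rose and 3 fell at 24 h. These shares of 14.3, 35.7 and 42.9% were not above those of all genes, 14.5, 52.2 and 53.6%. Skp2, which marks p27 for degradation, was 0.91 ± 0.10 higher at 2 h (adjusted p = 8.24e-09, edgeR), and Fbxw7, which acts on MYC and cyclin E, was lower (-0.31 ± 0.06, adjusted p = 7.70e-05, edgeR). Fbxo31, whose product is reported to act on cyclin D1, was 1.59 ± 0.08 higher at 8 h and 0.79 ± 0.08 higher at 24 h. The 13 measured FOXO factors and targets are set here beside Cdkn1b, itself a known FOXO target. Of these, 6 rose and 2 fell at 2 h, and 10 rose and 3 fell at 8 h. At 24 h 11 rose and 1 fell, and 9 rose without KO vehicle 24 h replicate 2. The called genes are 61.5, 100.0 and 92.3% of the list, against 14.5, 52.2 and 53.6% of all genes. Among the FOXO factors and targets Ddit4, an inhibitor of mTORC1 signalling, stood at 5.24 ± 0.25, 6.21 ± 0.26 and 5.11 ± 0.24 at 2, 8 and 24 h, and Pik3ip1, an inhibitor of PI3 kinase, at 2.35 ± 0.09, 3.90 ± 0.09 and 2.35 ± 0.09.

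Of 19 p53 target genes, of which Cdkn1a is the best known, 3 rose and 3 fell at 2 h. At 8 h 8 rose and 6 fell, and at 24 h 7 rose and 6 fell. These are 31.6, 73.7 and 68.4% of the list, against 14.5, 52.2 and 53.6% of all genes. Trp53inp1, which encodes a stress-induced nuclear protein, stood at 1.87 ± 0.08, 2.77 ± 0.09 and 2.18 ± 0.08, while Mdm2, which encodes the ligase of p53, was lower at 2 h (-0.34 ± 0.06). Of 15 regulators of macrophage growth and self-renewal, 3 rose and 6 fell at 2 h and at 8 h, and 5 rose and 4 fell at 24 h. This is 60.0% of the list at each time, against 14.5, 52.2 and 53.6% of all genes. Egr2, an immediate early gene of M-CSF signalling, stood at -3.21 ± 0.24 at 2 h and -2.52 ± 0.23 at 8 h, and Ets2 at -0.84 ± 0.08 at 8 h and -0.88 ± 0.08 at 24 h. No gene of these 9 lists passed the test of a difference between the genotypes or of their Dex effects.

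Over the 14 group means of log2 CPM, which share the treatment and time of their libraries, the closest genes to each member were given by Pearson's r as a description. For Ccnd1 they were Pgk1 (r = 0.984), Sept7 (r = 0.983) and Nap1l1 (r = 0.982), and for Ccnd2 Mov10 (r = 0.982), Ctnnd2 (r = 0.980) and Sgcb (r = 0.979). For Ccnd3 they were Smarca2 (r = 0.973), Inpp5j (r = 0.961) and Ap1s2 (r = 0.959). For Cdk4 they were Pfn1, Tmem106a and Ube2n (r = 0.966 to 0.974), and for Cdk6 Mboat1, Serpinb1a and Hn1l (r = 0.979 to 0.984). For Cdkn1a they were Ciapin1, Ppp2r2d and Pcgf5 (r = 0.933 to 0.956), and for Cdkn1b Capzb, Slc31a2 and Nup88 (r = 0.971 to 0.976). For Cdkn2d they were Hmgb2, Smc4 and Slc25a38 (r = 0.899 to 0.960), and for Myc B4galt6, Tnf and Nanos1 (r = 0.960 to 0.964). Among the members themselves, Ccnd1 and Ccnd2 had r = 0.946, Ccnd3 and Cdkn1b r = 0.917, and Myc and Cdkn1b r = -0.923.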

How the data were processed

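RNA was sequenced from 42 libraries of mouse bone marrow-derived macrophages, placed in 14 groups of 3 by their labels. For 11160 genes the deposited table gives expected counts, made by the authors with fastp, HISAT2, Salmon and the GRCm38 assembly, per the submitters' processing notes, with no version, role or order given. Of these values, 69.5% are whole to within 0.01. No gene has a total under 256 counts, and how genes were selected is not given in the sources used here, nor is the strand of counting. Ccnd1, Ccnd2, Ccnd3, Cdk4, Cdk6 and Cdkn1a overlap genes on the other strand, so that part of their counts is uncertain.

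Expected counts were rounded and tested with edgeR 4.0.16 (R 4.3.3, limma 3.58.1): TMM scaling, 1 model of 14 group means, the quasi-likelihood F test, Benjamini-Hochberg adjustment over all 11160 genes and a threshold of 0.05. The filter on low counts removed 0 genes. Fold changes are log2 values ± SE, with 28 residual degrees of freedom; averages over the genotypes compare 6 libraries with 6. CPM use TMM-scaled totals (factors 0.950 to 1.04). The scripts were tested on simulated counts. Lengths and places are from GENCODE mouse release 21 (GRCm38); strands are as annotated. Replicates of a group differed by more than counting noise.

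Whether equal replicate numbers pair the libraries was checked by correlating deviations from group means over all genes. For Dex against vehicle, every correlation of same-numbered libraries was over 0.1 in both genotypes only at 8 h (lowest 0.294 in WT and 0.111 in KO). Between KO and WT, the lowest correlation was 0.239, 0.229 and 0.227 with vehicle at 2, 8 and 24 h and 0.254 with Dex at 2 h. It was -0.175 untreated, and -0.0255 and 0.0908 with Dex at 8 and 24 h. For vehicle at 2, 8 and 24 h against untreated cells, the lowest was 0.130, 0.255 and 0.369 in KO. In WT it was -0.0107, 0.0840 and 0.0568. The replicate block fits 1 effect per replicate number for all 14 groups, so it does not pair Dex with vehicle within a genotype and time. The values reported are those of the model without the block. Each result was also computed with DESeq2 1.42.0, with the replicate block, in the compared groups alone, with median-ratio scaling, with a filter at a mean of 5 CPM or without any filter, and without each library in turn. Only the averages of KO against WT were also computed on sums over conditions. Genes named are all members, the 3 genes most like each member, up to 4 genes a list with the lowest p, and Ms4a4a, Tsc22d3 and Fkbp5; other genes named as absent or as markers belong to the marker lists. The members and lists were chosen with earlier results of these data known.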

Additional observations from a re-analysis of the deposited data

Results flagged for a closer look

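The effect of Dex differed between times for these members, by edgeR's test of the difference itself, as log2 values ± SE averaged over the genotypes. Between 2 and 8 h the difference was -1.49 ± 0.29 for Ccnd1, 0.85 ± 0.10 for Ccnd3, 0.37 ± 0.11 for Cdkn1a, 0.85 ± 0.22 for Cdkn1b, 0.55 ± 0.16 for Cdkn2c and 0.70 ± 0.15 for Cdkn2d, and these were called in all 24 fits that left out 1 library. It was -0.69 ± 0.27 for Ccnd2 and -0.69 ± 0.25 for Myc, which were called in 11 and 14 of those 24 fits (adjusted p up to 0.122 and 0.109).

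Between 8 and 24 h the difference was -0.82 ± 0.10 for Ccnd3, -0.98 ± 0.12 for Cdk6, -1.31 ± 0.17 for Cdkn2c and -0.85 ± 0.15 for Cdkn2d, called in all 24 fits. It was -0.85 ± 0.30 for Ccnd1 and -0.31 ± 0.11 for Cdkn1a, called in 10 and 11 of the 24 (adjusted p up to 0.0803 and 0.0953).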

How the results depend on the processing

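No called direction of a member reversed under any alternative. The 9 calls of members under Dex at 8 h held in all 6 alternatives and all 12 fits without 1 library, and the numbers of all genes called by Dex stayed between 5439 and 5644 at 8 h and 5566 and 5881 at 24 h in those fits. Fewer genes passed for vehicle at 2 h against untreated cells in a fit of the compared groups alone, 1007 against 1535, with 0 members against 1. For KO against WT, the cause of the changes was not tested: without Dex the count was 25, with 71 by DESeq2, 111 with the replicate block and 0 on sums over conditions (3 against 3), and under Dex it was 6, with 25, 37 and 1.

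Leaving out 1 library gave 0 to 2 members for Dex at 2 h (0 without WT vehicle 2 h replicate 1, and 2 without KO Dex 2 h replicate 2, which added Ccnd3), 0 to 1 for vehicle at 2 h, and 3 to 7 for vehicle at 8 h (3 without KO untreated replicate 1 or WT vehicle 8 h replicate 3). It gave 0 to 7 genes for the genotype difference of the Dex effect at 2 h (7 without KO Dex 2 h replicate 3), and for KO against WT 9 to 38 genes without Dex and 6 to 14 under Dex. A replicate block gave 9 members called at 24 h of Dex in place of 7, which added Cdk4 and Cdkn2d, and at 8 h it changed no member's call. For Dex against vehicle at 24 h, the correlations of same-numbered libraries ran from -0.0348 to 0.235 in KO and from 0.256 to 0.414 in WT. Of the calls made by DESeq2 under Dex for KO against WT, 64.0% were higher, against 83.3% by edgeR. Depth limits Cdkn1b most, at 4.11 to 11.0 CPM.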
